A study of Mus musculus with 24 samples.

Results

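Ribosome biogenesis factors are the proteins that transcribe, modify, cut and fold ribosomal RNA and assemble it with ribosomal proteins into the subunits. A list of 60 such genes was followed in mouse Th1 cells. The symbols were looked up in the deposited expression table through their Ensembl identifiers, and all 60 were among its 9420 genes. By role they comprised 4 subunits of RNA polymerase I, 3 proteins of box C/D snoRNPs, 5 proteins of box H/ACA snoRNPs, 21 proteins of the small-subunit processome, 6 later factors of the 40S subunit, 16 factors of the 60S subunit and 5 nucleolar proteins with several roles. All 60 also passed the filter on low values, a mean of at least 1 FPKM in each kind of library.

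The cells were CD4+ Th1 effector cells, helper cells known for making interferon gamma, of the DO11.10 strain, whose T cell receptor is a transgene. Restimulation used anti-CD3 at 1 µg/ml and anti-CD28 at 2.5 µg/ml on a plate coated with goat antibody to hamster immunoglobulin, and the 0 h samples are the cells before it. Libraries of 3 kinds were made from the same time course. For RNA made during 1 h of labelling with 200 µM 4-thiouridine (4sU RNA) there was a pair of libraries at 0, 1 and 4 h and a single one at 2 h and at 3 h. For total RNA there was a pair at 0 and 4 h and a single one at 1 h and at 2 h, and for ribosome-protected fragments (footprints) a pair at 0, 1 and 4 h and a single one at 0.5 h and at 2 h. A further pair of 4sU libraries, labelled for 0.5 h at 500 µM, covered 0 and 0.5 h. All values are FPKM, fragments scaled to gene length and to the mapped fragments of the library, and are therefore relative to the rest of each library. More RNA per cell and more cells with that RNA cannot be told apart in such bulk samples.

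The libraries of replicate 1 and replicate 2 differed in markers of another cell type and, after restimulation, in those of Th1 cells. The 6 CD8 T cell markers (Cd8a, Cd8b1, Gzma, Gzmk, Eomes and Klrd1) summed to 104 to 176 FPKM in replicate 1 and 24.6 to 62.1 in replicate 2 of 4sU RNA, to 282 to 372 and 29.5 to 46.1 in total RNA, and to 841 to 1137 and 103 to 161 in footprints. In each of these 3 kinds every library of replicate 1 had the higher sum. The labels of the short-label 4sU pair give no replicate number. This pair had 30.6 FPKM at 0.5 h and 35.8 at 0 h, within the range of replicate 2 of 4sU RNA. The single libraries at 2 and 3 h and the single footprint library at 0.5 h are all of replicate 1. The single total RNA library at 1 h is of replicate 2. The part of the difference in CD8 T cell markers in the values at those times was not tested. All 7 markers of CD4 Th1 cells were in the table, as were 1 of 6 NK cell, 4 of 6 B cell and 4 of 10 macrophage and dendritic cell markers. In 4sU RNA the Th1 markers, Ifng among them, summed to 656 and 601 FPKM at 0 h (replicates 1 and 2). They reached 5890 and 1311 at 1 h and 7974 and 2782 at 4 h. In total RNA they summed to 672 and 511 at 0 h and 7884 and 2236 at 4 h. In footprints the sums were 4559 and 3648 at 0 h, 10343 and 4587 at 1 h and 22448 and 14741 at 4 h. The part of this difference in the results was not tested. The sums of the B cell markers were lower at 4 h than at 0 h in every kind and replicate, with 1.84 FPKM at 4 h against 17.3 at 0 h in 4sU RNA, 2.33 against 13.5 in total RNA and 6.5 against 62.9 in footprints of replicate 1, and 2.04 against 4.19, 2.50 against 2.78 and 7.39 against 17.0 in replicate 2. The macrophage and dendritic cell markers summed to 113 and 87.9 FPKM in footprints at 4 h, against 310.2 and 123 at 0 h, to 27.8 and 20.8 against 65.2 and 24 in total RNA, and to 13.8 and 15.7 against 29.6 and 14.1 in 4sU RNA (replicates 1 and 2). The NK cell marker stood at 14.1 FPKM or less in every library. The B cell and the macrophage and dendritic cell sums differed between 4 h and 0 h most in replicate 1, and their part in the results was not tested. The depth of 11 of the 24 libraries could be read from the steps between low values, and ran from 8.95 to 26.6 M reads in footprints, 12.8 and 14.9 M in the short-label pair, and 4.88 M in total RNA at 0 h, replicate 2.

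In a growing cell, RNA polymerase I transcribes a long precursor of ribosomal RNA in the nucleolus. Guide RNAs bound to box C/D proteins direct methylation of its sugars, and those bound to box H/ACA proteins direct conversion of uridine to pseudouridine. The small-subunit processome, a large particle built around the U3 snoRNA, cuts the precursor and shapes the future 40S subunit, while a separate set of factors matures the 60S subunit. T cells that meet antigen enlarge before they divide, and nucleolar enlargement is a classical sign of that growth.

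Promoter windows were available in RefSeq (GRCm38.p6) for 50 of the 60 genes, in 54 windows that each run from 250 bases before the annotated start to 50 bases after it. No window was given for Rrs1, Gnl2, Npm1, Naf1, Nol6, Dcaf13, Wdr36, Bop1, Fbl and Rrp12. The E-box CACGTG, the form bound by Myc and other basic helix-loop-helix proteins, is its own reverse complement and was found in 10 of the 54 windows (18.5%), against 10.5% of 9602 windows of the genes in the table and 7.15% of all 32851 windows. In 7 of these 10 it lay after the start, and these 7 stretches of 30 bases are shown because the share of windows with an E-box differed from the background most on that side (the E-box in capitals, 5′ to 3′ on the strand of the gene). After the start alone, CACGTG occurred in 13.0% of the windows, against 1.68% of the windows of the table's genes and 1.08% of all windows. Before the start alone it occurred in 5.56%, against 8.66% and 6.02%.
Mybbp1a, chr11:72441347-72441376, plus strand: aagtgactgtcttctgagccCACGTGtttg
Wdr43, chr17:71616220-71616249, plus strand: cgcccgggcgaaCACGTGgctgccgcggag
Tsr1, chr11:74898092-74898121, plus strand: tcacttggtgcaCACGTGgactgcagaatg
Ltv1, chr10:13193092-13193121, minus strand: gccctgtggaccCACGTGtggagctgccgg
Pno1, chr11:17211540-17211569, minus strand: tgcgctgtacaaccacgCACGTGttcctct
Pes1, chr11:3963965-3963994, plus strand: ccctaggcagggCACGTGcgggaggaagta
Utp20, chr10:88826765-88826794, minus strand: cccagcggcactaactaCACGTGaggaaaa

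The core of the ETS motif, CCGGAAG or CTTCCGG, was found in 21 of the 54 windows (38.9%), against 20.3% of the windows of the table's genes and 8.86% of all windows. Shown here are the 100 bases before the start of the 4 genes with the largest 4sU change at 4 h that hold it there (the motif in capitals, 5′ to 3′). The third motif, CGCATGC or GCATGCG, the inner part of the NRF1 motif, was in 9.26%, against 6.99% and 3.58%. None of the 3 motifs contains another. A match describes the letters of a window and says nothing of binding, and windows of neighbouring starts of 1 gene share bases. The division of the window at the start site was added after the data had been seen.
Nolc1, chr19:46075747-46075846, plus strand: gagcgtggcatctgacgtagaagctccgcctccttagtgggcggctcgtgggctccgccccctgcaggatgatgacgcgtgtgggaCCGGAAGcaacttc
Nop2, chr6:125131783-125131882, plus strand: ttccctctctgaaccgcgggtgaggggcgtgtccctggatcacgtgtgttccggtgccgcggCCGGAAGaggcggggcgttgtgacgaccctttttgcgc
Nhp2, chr11:51619673-51619772, plus strand: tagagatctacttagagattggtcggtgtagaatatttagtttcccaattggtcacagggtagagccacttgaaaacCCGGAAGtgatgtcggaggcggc
Heatr1, chr13:12395275-12395374, plus strand: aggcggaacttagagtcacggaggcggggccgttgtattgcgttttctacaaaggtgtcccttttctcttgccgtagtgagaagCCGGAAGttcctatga

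At 4 h after restimulation, newly made RNA of nearly every ribosome biogenesis gene was higher than at 0 h. In 4sU RNA, 57 of the 60 genes rose at a limma adjusted p below 0.05 and none was called lower, while of the 9278 genes tested 14.4% were called higher and 18.9% lower. The median log2 change was 1.93 (quartiles 1.42 and 2.49), against -0.16 over all genes tested. As a ratio of mean FPKM, the median was 4.15-fold, 56 genes were at least 2-fold higher, and the range ran from 1.46-fold for Wdr12 to 14.5-fold for Polr1b. In all 60 genes both 4 h libraries lay above both 0 h libraries, which 28.7% of all genes tested did. Of the 100 genes with the largest change, 11 were ribosome biogenesis genes. Leaving out 1 library at a time gave 45 to 56 calls. The summed FPKM of the 60 genes was 4162 and 3292 at 4 h, against 926 and 747 at 0 h (replicates 1 and 2). Log2 changes here and below are on the log2(FPKM + 1) scale, which understates the change of low genes, and the labels do not say that replicates were separate cultures or animals, so each p-value reflects no more than how far these libraries spread.

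**Figure D1:**
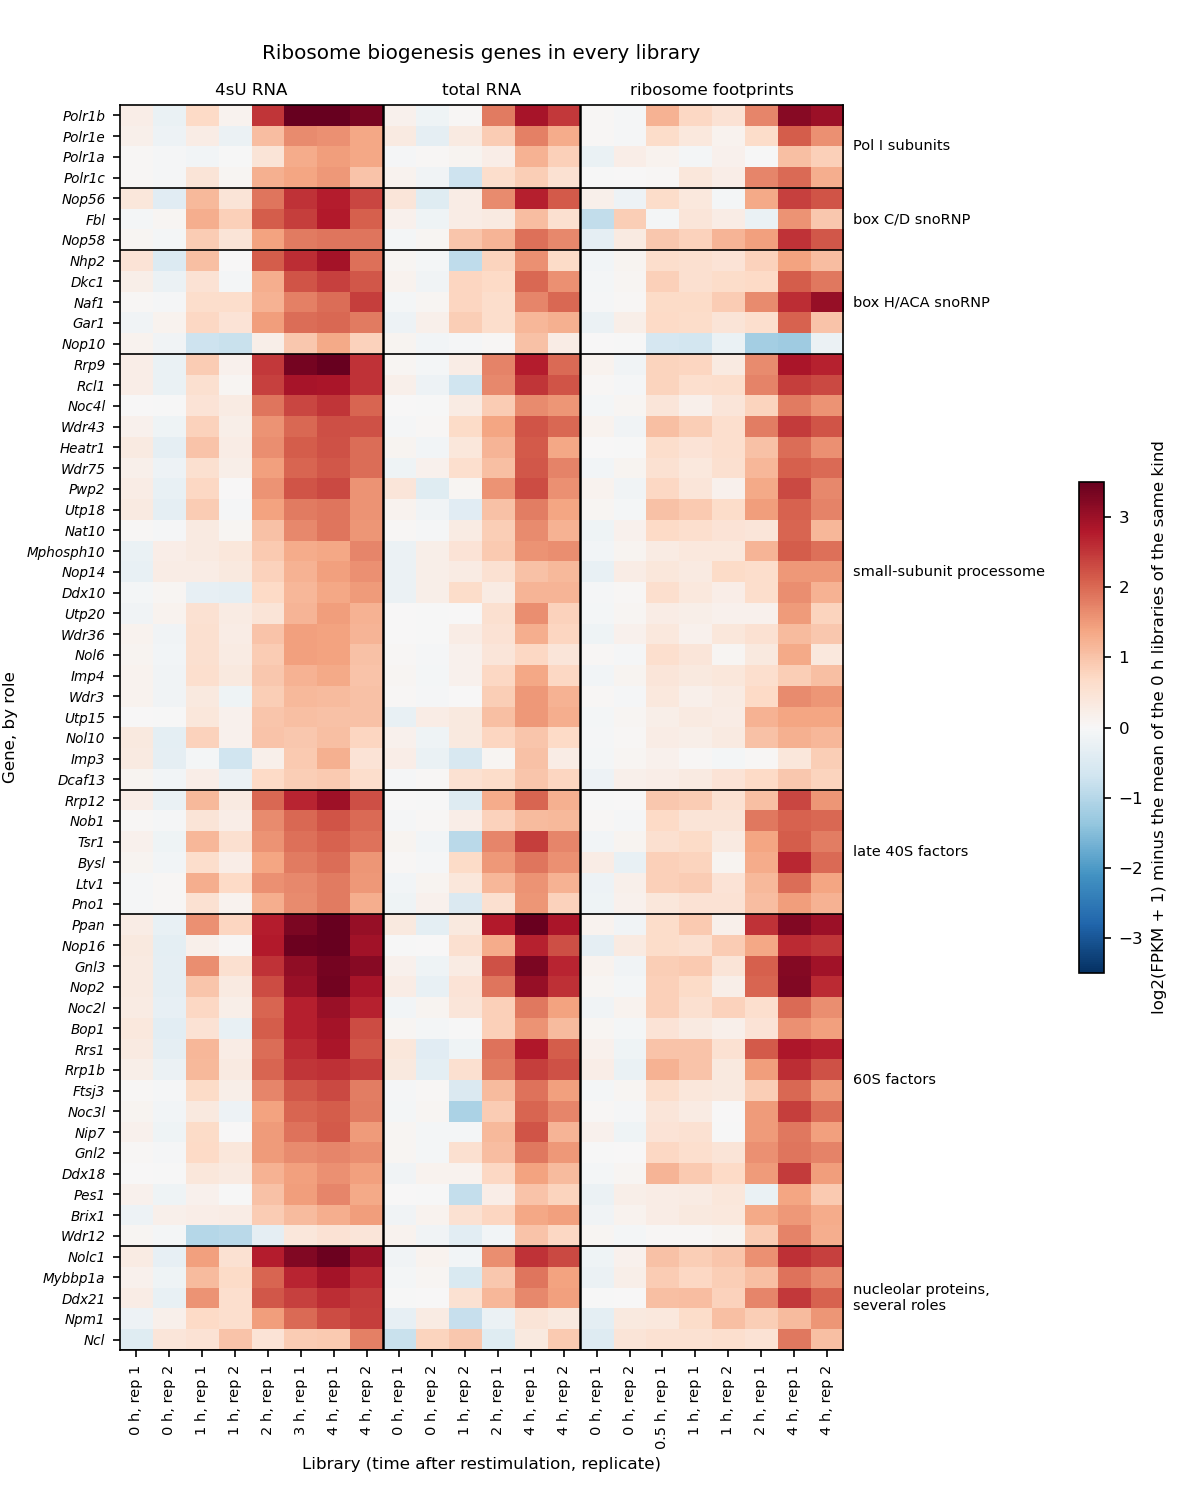
Each row is 1 of the 60 genes, grouped by role and ordered by the 4sU change at 4 h, and each column is 1 library in order of time. Colour gives log2(FPKM + 1) minus the mean of the 0 h libraries of the same kind. The 4 h columns are red in nearly every row, and the footprints of Nop10 are blue.

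All 4 polymerase I subunits rose in 4sU RNA at 4 h, with a median log2 change of 1.45. Polr1b (chr2:129100995-129126594 in GENCODE M21), the second largest subunit of the polymerase, stood at 44.6 and 36.1 FPKM at 4 h, against 3.43 and 2.15 FPKM at 0 h. The groups lay far apart, and this was the largest change of the 60 genes (log2 change 3.46 ± 0.28 SE, limma adjusted p = 0.00212). Polr1e, a subunit that helps the enzyme engage promoters, had 16.77 and 14.02 FPKM at 4 h, against 5.59 and 4.19 at 0 h (log2 change 1.48). Polr1c, which RNA polymerase III shares, had the smallest change of the role, with 65.4 and 45.2 FPKM at 4 h against 22.8 and 21.7 at 0 h (log2 change 1.25, limma adjusted p = 0.0115). Polr1a, the catalytic subunit, changed by 1.41. The call of Polr1c was lost without either 0 h library (limma adjusted p = 0.0547 without replicate 1 and 0.0693 without replicate 2).

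The 3 box C/D proteins rose together, with a median log2 change of 2.43. Nop56, a core protein of these particles, had 261 and 196 FPKM at 4 h, against 49.8 and 28.8 at 0 h (log2 change 2.54 ± 0.36, limma adjusted p = 0.00528). Fbl, fibrillarin, the methyltransferase of the particle, had 68.5 and 41.5 FPKM at 4 h, against 8.58 and 9.57 at 0 h (log2 change 2.43 ± 0.28, limma adjusted p = 0.00342). Nop58, the partner of Nop56, had 20.7 and 20.9 FPKM at 4 h, against 5.23 and 4.66 at 0 h (log2 change 1.88). The groups did not overlap in any of the 3. Nop56 shares 8.12% of its exon bases with other annotated genes, Snord57 and Idh3b among them, and reads of overlapping genes cannot be separated here, since no source used here gives the strand setting of the counting.

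The 5 box H/ACA proteins also rose, with a median log2 change of 2.20. Nhp2, a core protein of the particle, had 125 and 62.2 FPKM at 4 h, against 22.1 and 11.0 at 0 h, so that its replicates differed widely at both times (log2 change 2.42 ± 0.51, limma adjusted p = 0.0161). Dkc1, dyskerin, the pseudouridine synthase, had 50.9 and 43.5 FPKM at 4 h, against 10.5 and 7.61 at 0 h (log2 change 2.27 ± 0.25, limma adjusted p = 0.00326). Naf1, an assembly factor of the particle, changed by 2.20, and Gar1 by 1.92. Nop10, the smallest core protein, changed least in this role, with 46.6 and 32.4 FPKM at 4 h against 19.7 and 16.3 at 0 h (log2 change 1.07 ± 0.22, limma adjusted p = 0.0145). The calls of Nhp2 and Nop10 were lost without the 0 h library of replicate 2 (limma adjusted p = 0.0822 and 0.0926) and without the 4 h library of replicate 1 (0.0783 and 0.0513).

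Of the 21 small-subunit processome genes, 19 rose in 4sU RNA at 4 h, and the median log2 change was 1.52. Rrp9, a protein of the U3 particle, had 68.3 and 33.0 FPKM at 4 h, against 5.89 and 4.04 at 0 h (log2 change 3.04 ± 0.41, limma adjusted p = 0.00464). Rcl1, known in yeast as a factor for an early cut of the precursor, had 93.6 and 74.0 FPKM at 4 h, against 14.3 and 9.96 at 0 h (log2 change 2.70 ± 0.26, limma adjusted p = 0.00261). These 2 stood above the rest of the role. Between 2.00 and 2.30 lay Noc4l (2.27), Wdr43 (2.24), Heatr1 (2.09) and Wdr75 (2.06). Pwp2 (1.94), Utp18 (1.72), Nat10 (1.70), the enzyme that acetylates cytidines of ribosomal RNA, Mphosph10 (1.54), Nop14 (1.52), Ddx10 (1.42) and Utp20 (1.35) followed. Wdr36 (1.29), Nol6 (1.21), Imp4 (1.16), Wdr3 (1.07) and Utp15 (1.04) were lower still.

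Dcaf13, the called processome gene with the smallest change, had 66.4 and 54.0 FPKM at 4 h, against 37.4 and 32.7 at 0 h (log2 change 0.76 ± 0.23, limma adjusted p = 0.0451). Its call was lost without any 1 of the 4 libraries of 0 and 4 h, with adjusted p-values of 0.0543 to 0.211. Imp3, which joins the U3 RNA to the precursor, had 140.4 and 82.4 FPKM at 4 h, against 74.2 and 47.0 at 0 h, so the spread between replicates was nearly as large as the difference (log2 change 0.85 ± 0.38, limma adjusted p = 0.125). Nol10, known in yeast as a processome protein, had 34.9 and 28.3 FPKM at 4 h, against 20.95 and 12.63 at 0 h (log2 change 0.91 ± 0.32, limma adjusted p = 0.07). In both genes the 4 h libraries lay above the 0 h libraries, and both were called with the replicate number as a block.

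All 6 later factors of the 40S subunit rose, with a median log2 change of 1.87. Rrp12, which takes part in export of the particle, had 38.6 and 23.2 FPKM at 4 h, against 5.01 and 3.31 at 0 h (log2 change 2.60 ± 0.37, limma adjusted p = 0.00531). Nob1, the nuclease that makes the final cut of 18S ribosomal RNA, had 32.7 and 28.0 FPKM at 4 h, against 6.59 and 6.07 at 0 h (log2 change 2.09 ± 0.17, limma adjusted p = 0.0022). The replicates of Nob1 lay close together at both times. Pno1, the binding partner of Nob1, had the smallest change, with 32.4 and 21.9 FPKM at 4 h against 8.2 and 8.88 at 0 h (log2 change 1.54). Tsr1 (1.98), Bysl (1.75) and Ltv1 (1.67), which leave the particle before or during its last steps, lay between. Tsr1 shares 32.3% of its exon bases with Srr on the other strand, the most of the 60 genes. The others at 10% or more were the 60S factor Noc2l (20.9%, with Samd11) and the processome gene Wdr3 (16.2%, with Spag17 and Gdap2), also with genes on the other strand.

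Of the 16 factors of the 60S subunit, 15 rose, and their median log2 change was 2.27. Ppan (chr9:20888175-20892178), known in yeast as an early 60S factor, had 224 and 148 FPKM at 4 h, against 20.5 and 14.2 at 0 h (log2 change 3.34 ± 0.37, limma adjusted p = 0.00322). Nop16, a nucleolar protein of early 60S particles, had 68.4 and 41.1 FPKM at 4 h, against 5.97 and 3.39 at 0 h (log2 change 3.29 ± 0.32, limma adjusted p = 0.00261). Gnl3, nucleostemin, a nucleolar GTPase of proliferating cells, had 227 and 204 FPKM at 4 h, against 26.8 and 17.2 at 0 h (log2 change 3.27 ± 0.39, limma adjusted p = 0.0037). Nop2, a methyltransferase of 28S ribosomal RNA, had 195 and 139 FPKM at 4 h, against 22.8 and 14.1 at 0 h (log2 change 3.13). These 4 lay far above their 0 h libraries in both replicates. The others were Noc2l (2.87), Bop1 (2.59), Rrs1 (2.53), Rrp1b (2.48), Ftsj3 (2.06), Noc3l (1.96), Nip7 (1.82), Gnl2 (1.68), Ddx18 (1.53), Pes1 (1.52) and Brix1 (1.37).

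Wdr12 was the 60S factor that was not called. It forms the PeBoW complex with Bop1 and Pes1, and the 3 subunits differed in size of change, with log2 changes of 2.59 for Bop1, 1.52 for Pes1 and 0.46 for Wdr12. Wdr12 had 6.75 and 6.30 FPKM at 4 h, against 4.71 and 4.24 at 0 h (0.46 ± 0.17, limma adjusted p = 0.0822). The 4 h libraries lay above the 0 h libraries, and the gene was called with the replicate block and with median-of-ratios scaling. In footprints Wdr12 had 58.4 and 41.9 FPKM at 4 h, against 17.9 and 16.0 at 0 h, and was called (log2 change 1.49 ± 0.21, limma adjusted p = 0.00817).

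The 5 nucleolar proteins with several roles rose too, with a median log2 change of 2.52. Nolc1, a chaperone of snoRNPs that moves between nucleolus and cytoplasm, had 135 and 101 FPKM at 4 h, against 14.2 and 9.24 at 0 h (log2 change 3.24 ± 0.35, limma adjusted p = 0.0032). Mybbp1a, a nucleolar regulator of transcription, had 123 and 100.2 FPKM at 4 h, against 17.5 and 13.9 at 0 h (log2 change 2.76 ± 0.23, limma adjusted p = 0.0022). Ddx21, a helicase, changed by 2.52. Npm1, nucleophosmin, an abundant histone chaperone of the nucleolus, had 156 and 173 FPKM at 4 h, against 27.9 and 35.4 at 0 h (log2 change 2.35 ± 0.20, limma adjusted p = 0.0022). Ncl, nucleolin, changed least, with 17.5 and 32.1 FPKM at 4 h against 6.32 and 12.1 at 0 h, and replicate 2 well above replicate 1 at both times (log2 change 1.34 ± 0.39, limma adjusted p = 0.0445). Its call was lost without 5 of the 6 libraries of 0, 1 and 4 h, for example without the 0 h library of replicate 1 (log2 change 0.91, limma adjusted p = 0.177).

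**Figure D2:**
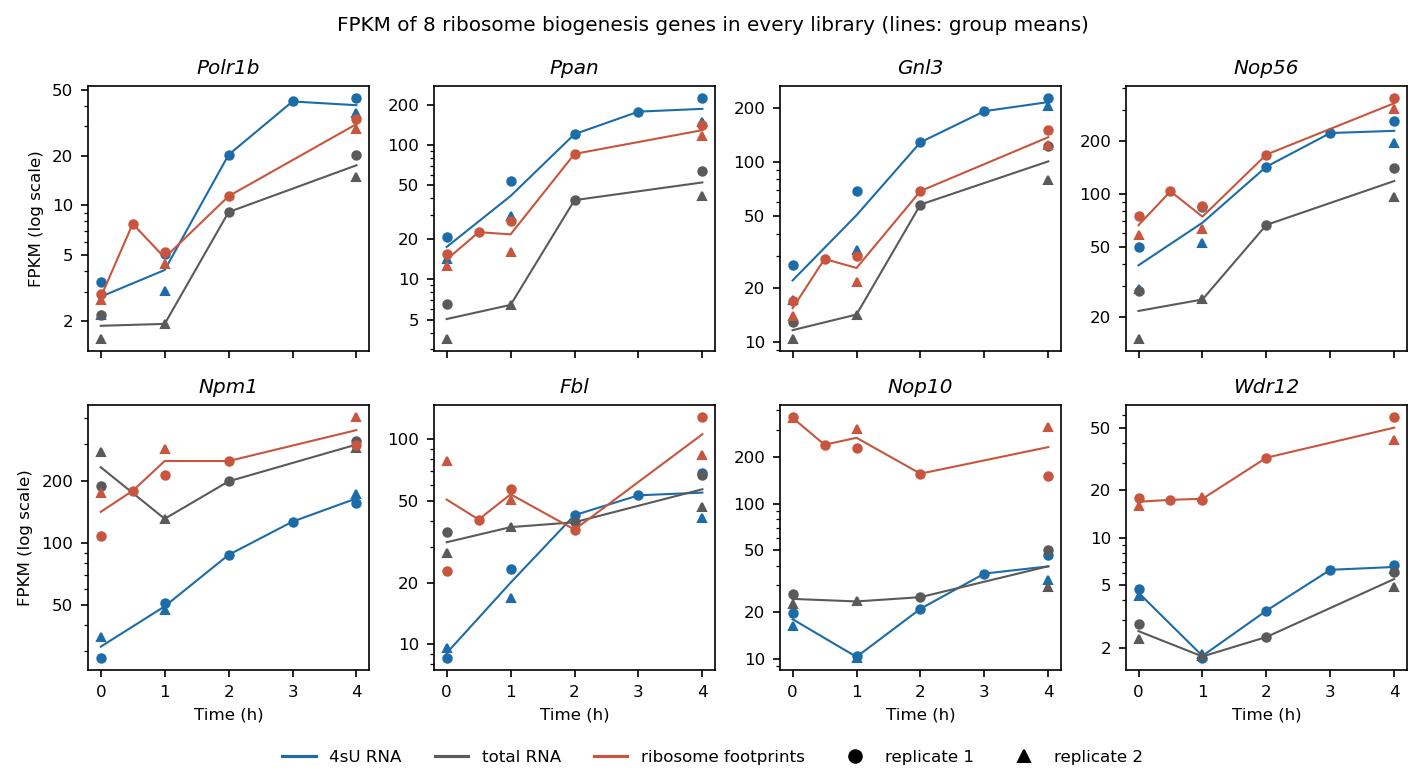
FPKM on a log axis against time after restimulation for 8 genes, with 1 point per library (circles replicate 1, triangles replicate 2) and lines through the group means of 4sU RNA, total RNA and footprints. Polr1b, Ppan, Gnl3 and Nop56 are higher at 4 h than at 0 h in all 3 kinds, Npm1 and Fbl show their steepest line in 4sU RNA, and the footprints of Nop10 lie below their 0 h level from 0.5 h on.

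The rise in 4sU RNA had begun in some genes by 1 h. No gene of the 60 was called at 1 h without the replicate block, while 0.183% of all genes were called higher; 15 of the 60 had an unadjusted p below 0.05, against 13.3% of all genes, but 4 without the 1 h library of replicate 1 and 7 without the 0 h library of replicate 2. With the replicate number as a block, 19 were called higher and 2 lower, against 5.21% and 5.42% of all genes tested. The 19 were Ppan, Gnl3, Ddx21, Fbl, Ltv1, Nolc1, Mybbp1a, Tsr1, Nop56, Ncl, Rrp12, Rrp1b, Rrs1, Nop58, Nop2, Npm1, Heatr1, Gnl2 and Nhp2. All 3 box C/D proteins and all 5 nucleolar proteins with several roles were among them, but none of the 4 polymerase I subunits. In Ltv1, the cargo adaptor of the 40S particle, 25.7 and 17.1 FPKM were measured at 1 h, against 9.83 and 10.4 at 0 h. The libraries at 1 h lay above those at 0 h in 35 genes, which 21.8% of all genes tested did, and below them in Ddx10, Nop10 and Wdr12, which 26.9% did.

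Wdr12 and Nop10 were the 2 genes called lower at 1 h with the block. Wdr12 had 1.72 and 1.83 FPKM at 1 h, against 4.71 and 4.24 at 0 h (log2 change -0.98 ± 0.17, limma adjusted p = 0.139 without the block and 0.0102 with it). Nop10 had 10.5 and 10.1 FPKM at 1 h, against 19.7 and 16.3 at 0 h (log2 change -0.75 ± 0.22, limma adjusted p = 0.257 without the block and 0.0261 with it). In both genes the replicates were close together and the groups did not overlap. At 4 h both lay above 0 h in 4sU RNA, so that their course first went down and then up.

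By 2 h, 30 of the 60 genes had risen in 4sU RNA, against 3.87% of all genes, and by 3 h 54 had, against 9.41%. None of the 60 was called lower at 2 or 3 h, or between 1 and 4 h, against 3.69%, 10.7% and 14.7% of all genes. With the replicate block the 2 h count was 54, against 13.3% of all genes. Each of these times is 1 library of replicate 1, which is assumed to vary like the replicated groups. Without either 0 h library no gene was called at 2 h, and at 3 h 10 were called without replicate 1 and 1 without replicate 2. The median log2 change was 0.42 at 1 h, 1.44 at 2 h, 1.92 at 3 h and 1.93 at 4 h. The 1 h median was 0.24 without the 1 h library of replicate 1 and 0.60 without that of replicate 2. Expressed as a share of the 4 h change, the 57 genes called at 4 h had reached a median of 22.4% at 1 h, 77.6% at 2 h and 100.0% at 3 h. These shares set single libraries of replicate 1 at 2 and 3 h against means of both replicates, and within replicate 1 they were 30.1%, 68.7% and 92.2%. Between 1 and 4 h, 55 genes rose, against 11.9% of all genes; this count was 24 without the 1 h library of replicate 2 and 27 without the 4 h library of replicate 1.

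**Figure D3:**
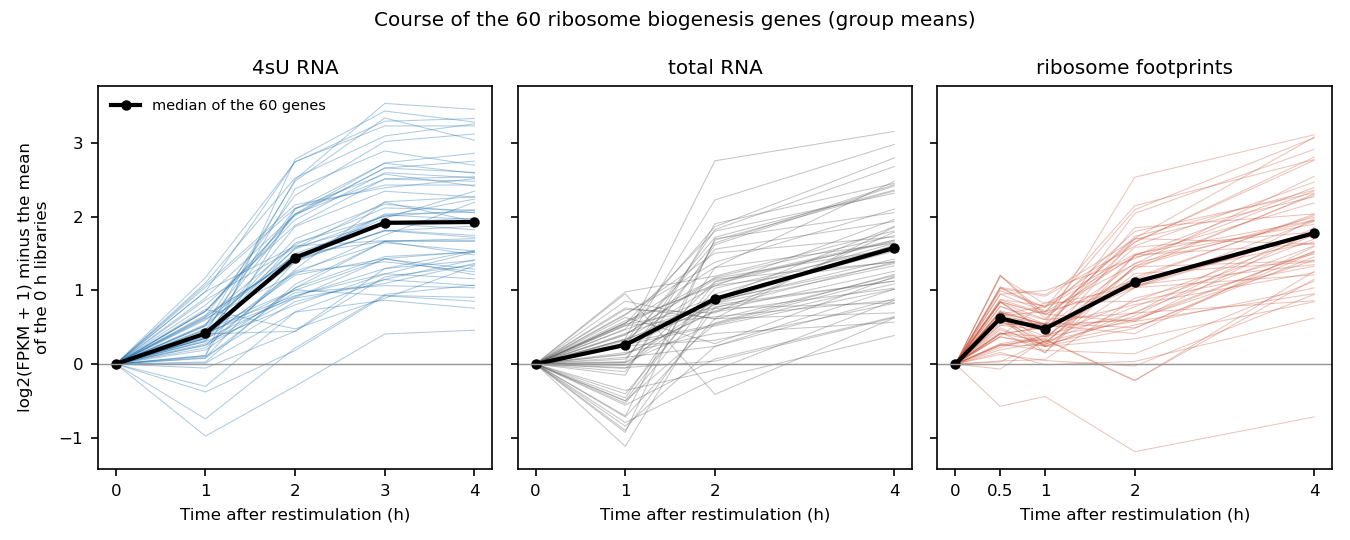
Thin lines are the 60 genes and the thick line is their median, as log2(FPKM + 1) minus the mean of the 0 h libraries, at each time in hours for 4sU RNA, total RNA and footprints. The median of 4sU RNA is 1.92 at 3 h (replicate 1 alone) and 1.93 at 4 h (mean of both replicates), whereas within replicate 1 it gains a median of 0.17 between these times.

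Replicate 1 of 4sU RNA holds every hour and shows the course without mixing replicates. The median step of the 60 genes was 0.52 on the log2 scale between 0 and 1 h, 0.79 between 1 and 2 h, 0.48 between 2 and 3 h and 0.17 between 3 and 4 h, where 54 of the 60 genes were still above their earlier value. The largest step fell between 0 and 1 h in 19 genes, between 1 and 2 h in 35, and between 2 and 3 h in Dkc1, Imp3, Nol6, Polr1a, Utp20 and Wdr12; in none did it fall between 3 and 4 h. Nop16 had 5.97, 5.29, 37.1, 59.0 and 68.4 FPKM at 0, 1, 2, 3 and 4 h, and its step between 1 and 2 h (2.60) was the largest of any gene. Polr1b had 3.43, 5.06, 20.2, 42.5 and 44.6 FPKM at the same times. Ltv1 had 9.83, 25.7, 32.7, 34.5 and 37.9 FPKM, and had reached 70.7% of its 4 h change by 1 h. Polr1a had 16.8, 15.2, 22.3, 41.2 and 46.5 FPKM and started to climb only after 1 h.

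The pair of libraries with the short label allowed a look at the first 0.5 h, with no replicate and no test. At 0.5 h none of the 50 genes with at least 5 FPKM was 2-fold above 0 h, which 0.755% of all such genes were. Values lay above 0 h in 40 of the 50, against 45% of all genes, and the median log2 difference was 0.22, against -0.03. The largest differences were those of Ltv1 (17.9 FPKM at 0.5 h and 8.98 at 0 h), Ncl (29.0 and 15.5), Tsr1 (35.5 and 19.8), Pno1 (9.42 and 5.17) and Gnl3 (26.0 and 15.2). The lowest were Nop10 (10.2 FPKM at 0.5 h and 13.9 at 0 h) and Imp3 (33.3 and 41.5). Ltv1, Ncl, Tsr1 and Gnl3 were also among the genes called higher at 1 h with the block in the longer label, but Pno1 was not. Nop10 was among those called lower there, and Imp3 was not. Wdr12, the other gene called lower there, had 8.68 FPKM at 0.5 h and 8.49 at 0 h in the short label.

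In total RNA, which holds old and new molecules, 47 of the 60 genes rose by 4 h and none was called lower, while of the 9078 genes tested 6.47% were called higher and 7.02% lower. The median log2 change was 1.58, against -0.10 over all genes. The count of 47 rests on single libraries, and it was lower whichever of the 0 and 4 h libraries was left out. Such a fit compares a single library with a pair, and the share of all genes called in it was not compared. The median log2 change in those fits was 1.32 to 1.68. Within each replicate number all 60 genes were higher at 4 h than at 0 h, with a median of 1.70 in replicate 1 and 1.30 in replicate 2. In 59 genes both 4 h libraries lay above both 0 h libraries, which 25.3% of all genes tested did. With median-of-ratios scaling, which moved the median of all genes by 0.10, 53 genes were called, against 8.63% of all genes.

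The 3 largest changes in total RNA were those of 60S factors. Ppan had 63.5 and 41.7 FPKM at 4 h, against 6.5 and 3.59 at 0 h (log2 change 3.16 ± 0.33, limma adjusted p = 0.00501). Gnl3 had 122 and 79.2 FPKM at 4 h, against 12.9 and 10.4 at 0 h (log2 change 2.98 ± 0.29, limma adjusted p = 0.00474). Nop2 had 86.1 and 61.7 FPKM at 4 h, against 11.7 and 7.86 at 0 h (log2 change 2.80 ± 0.29, limma adjusted p = 0.00494). All 3 kept their call without any 1 library of the 0 and 4 h groups. The 13 genes not called were Pno1, Nhp2, Imp4, Dcaf13, Wdr12, Nol10, Fbl, Polr1c, Imp3, Nop10, Ncl, Nol6 and Npm1. The smallest change was that of Npm1, with 309 and 288 FPKM at 4 h, against 188 and 276 at 0 h (log2 change 0.39 ± 0.28, limma adjusted p = 0.386). Nol6, a processome protein, had 11.95 and 9.42 FPKM at 4 h, against 7.01 and 6.66 at 0 h (0.57 ± 0.23, limma adjusted p = 0.135). Ncl had 30.9 and 47.0 FPKM at 4 h, against 13.8 and 42.5 at 0 h, the only gene of the 60 whose groups overlapped (0.63 ± 0.50, limma adjusted p = 0.426). Without the 0 h library of replicate 1 its change was -0.15, and without that of replicate 2 it was 1.41.

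Earlier total RNA changes were smaller. At 2 h only Ppan (38.8 FPKM in the single library at 2 h, against 6.5 and 3.59 at 0 h) and Gnl3 (58.0 against 12.9 and 10.4) were called, against 0.958% of all genes, with limma adjusted p of 0.0381 and 0.0458. None was called lower, against 0.0661% of all genes. With the replicate block 28 were called, against 5.33% of all genes, and without the 0 h library of replicate 2 none was. The median log2 change was 0.89 at 2 h. At 1 h, in a single library of replicate 2, no gene was called by limma, as for 0% of all genes, and 10 had an unadjusted p below 0.05, against 13.2% of all genes, and 3 without the 0 h library of replicate 1. With the block, 2 were called higher, Nop58 (13.6 FPKM at 1 h, against 6.09 and 6.76 at 0 h) and Dkc1 (26.6 against 17.0 and 14.1), against 1.43% of all genes. Also with the block, 2 were called lower, Npm1 (131 against 188 and 276) and Noc3l (1.16 against 3.49 and 3.90), against 9.02% of all genes.

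**Figure D4:**
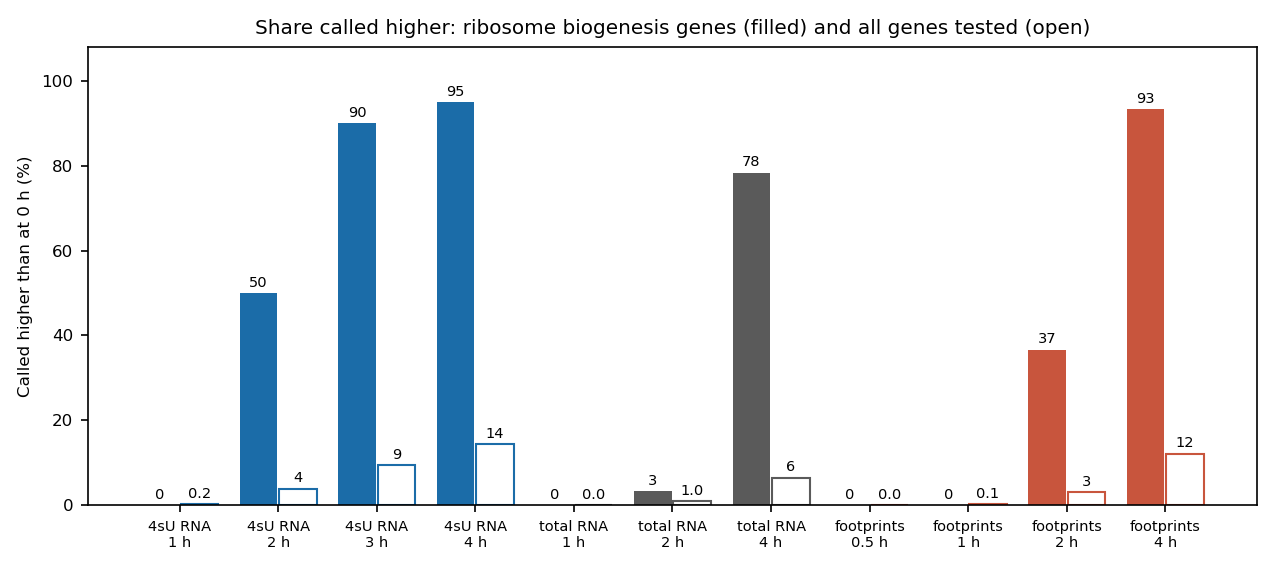
Bars give the percentage called higher than at 0 h at an adjusted p below 0.05 (limma without a block) in each kind of library and at each time, filled for the 60 ribosome biogenesis genes and open for all genes tested. At 4 h the filled bars stand at 95.0, 78.3 and 93.3%, and the open bars at 14.4, 6.47 and 12.1%.

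Footprints, which count ribosomes on the coding sequence, gave nearly the same picture at 4 h. There 56 of the 60 genes rose and none was called lower, while of the 9312 genes tested 12.1% were called higher and 12.9% lower, and the median log2 change was 1.78, against -0.10. Leaving out 1 library gave 38 to 53 calls. The largest changes were those of Ppan with 140.5 and 118 FPKM at 4 h against 15.4 and 12.6 at 0 h (3.12 ± 0.29, limma adjusted p = 0.00455), Polr1b with 33.2 and 28.9 against 2.90 and 2.65 (3.08 ± 0.18, limma adjusted p = 0.00344), and Gnl3 with 151 and 124 against 16.8 and 14.02 (3.08 ± 0.23, limma adjusted p = 0.0043). Polr1b thus had the largest change in 4sU RNA and the second largest in footprints. Naf1 had 40.9 and 56.4 FPKM at 4 h, against 5.79 and 6.19 at 0 h (log2 change 2.81). In 59 genes both 4 h libraries lay above both 0 h libraries, which 29% of all genes tested did.

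The 4 genes not called in footprints at 4 h were Fbl, Nol6, Imp3 and Nop10. Fbl had 128 and 83.6 FPKM at 4 h, against 22.9 and 78.8 at 0 h, so that its 0 h libraries differed widely (1.26 ± 0.56, limma adjusted p = 0.15). Nol6 had 56.2 and 28.0 FPKM at 4 h, against 22.3 and 21.1 at 0 h (0.85 ± 0.34, limma adjusted p = 0.12). Imp3 had 166 and 228 FPKM at 4 h, against 119 and 133 at 0 h (0.62 ± 0.22, limma adjusted p = 0.0866). Nop10 was the 1 gene whose footprints lay lower at 4 h, with 151 and 314 FPKM against 362 and 355 at 0 h, a difference that did not pass the test (-0.72 ± 0.37, limma adjusted p = 0.205).

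Nop10 differed in direction between the kinds of library. Its footprints were 362, 240.5, 229, 156 and 151 FPKM at 0, 0.5, 1, 2 and 4 h in replicate 1, and 355, 304 and 314 FPKM at 0, 1 and 4 h in replicate 2. Every later footprint library lay below both 0 h libraries, the lowest being those of replicate 1 at 2 and 4 h. Such a separation was common, since 36.8% of all genes tested had both 4 h libraries below both 0 h libraries. For the 1 h libraries this share was 25.1%. Its total RNA had 50.01 and 29.11 FPKM at 4 h, against 26.1 and 22.6 at 0 h. The difference between the change in footprints and that in total RNA was -1.35 ± 0.53, the lowest of the 60 genes, and was not called (limma adjusted p = 1, unadjusted p = 0.0315). Nop10 is a very short protein, so its footprints come from few codons, and the part of this in its values was not tested.

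At 0.5 h, in a single library of replicate 1, no footprint change was called by limma, with or without the block, as for 0% and 0.0322% of all genes called higher, but 23 of the 60 had an unadjusted p below 0.05, against 7.98% of all genes, and the median log2 change was 0.62. Without either 0 h library that count was 13. Polr1b had 7.72 FPKM at 0.5 h, against 2.90 and 2.65 at 0 h, and Ddx18, a helicase of 60S assembly, had 13.8, against 5.19 and 5.83. At 1 h no gene was called either, with or without the block, against 0.14% and 1.42% of all genes; 22 had an unadjusted p below 0.05, against 10.6% of all genes, and the median was 0.48. Without 1 library of 0 or 1 h the count of 22 was 9 (either library of replicate 1), 13 (0 h, replicate 2) or 11 (1 h, replicate 2). In 51 genes both 1 h libraries lay above both 0 h libraries, which 17.2% of all genes tested did. Nolc1 had 88.9 and 96.0 FPKM at 1 h, against 43.6 and 53.5 at 0 h.

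In replicate 1 of the footprints, the median step was 0.66 on the log2 scale between 0 and 0.5 h, -0.11 between 0.5 and 1 h, 0.57 between 1 and 2 h and 0.94 between 2 and 4 h. The step between 0.5 and 1 h was above 0 in 17 genes only. Polr1b went through 2.90, 7.72, 5.23, 11.4 and 33.2 FPKM at 0, 0.5, 1, 2 and 4 h. The largest step fell between 2 and 4 h in 32 genes, between 1 and 2 h in 16, and between 0 and 0.5 h in 12, which included Ddx18, Ddx21, Nolc1, Mybbp1a, Npm1 and Nop58. The steps span unequal lengths of time, so their sizes and these counts do not compare rates. By 2 h, 22 genes were called higher against 0 h, against 2.96% of all genes, led by Ppan (85.8 FPKM, against 15.4 and 12.6 at 0 h) and Rrs1 (124, against 30.1 and 24.4). This count was 38 with the replicate block, against 9.53% of all genes, and 0 without either 0 h or either 4 h library. It was 10 without the 1 h library of replicate 1 and 9 without that of replicate 2. Between 1 and 4 h, 43 genes rose, against 7.65% of all genes, but 0 did without the 1 h library of replicate 2 or either 4 h library, and 4 without the 1 h library of replicate 1. None was called lower at 2 h or between 1 and 4 h, against 1.97% and 6.42% of all genes.

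The order of the genes by 4 h change was similar in the 3 kinds. Across the 60 genes the changes correlated with Pearson's r of 0.77 between 4sU and total RNA, 0.74 between 4sU RNA and footprints and 0.86 between total RNA and footprints, as a description over genes that share time points, replicates and cells. The test of a difference between kinds called no gene by limma, with 0% of all genes called. For footprints against total RNA, the median difference was 0.18, 5 of the 60 had an unadjusted p below 0.05 against 2.67% of all genes, and none was called with the replicate block, against 0.0222% of all genes. That median ran from -0.02 without the 4 h total RNA library of replicate 2 to 0.39 without that of replicate 1. It was 0.02 and 0.35 without the 4 h footprint library of replicate 1 and of replicate 2. Without the 0 h footprint library of replicate 1 it was 0.11. For 4sU against total RNA the median difference was 0.28 and 8 of the 60 had an unadjusted p below 0.05, against 5.82% of all genes. That median was 0.06 and 0.52 without the 4 h total RNA library of replicate 2 and of replicate 1, and 0.15 and 0.43 without the 4 h 4sU library of replicate 1 and of replicate 2, and over all left-out libraries the count of 8 ran from 5 to 14. With the replicate block 7 genes were called in that comparison, against 1.69% of all genes, each with the larger change in 4sU RNA: Npm1, Fbl, Nhp2, Bop1, Noc2l, Mybbp1a and Nob1.

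Npm1 had the widest gap between new and total RNA. Its change was 2.35 in 4sU RNA and 0.39 in total RNA, a difference of 1.96 ± 0.34, rank 7 of 9033 genes (limma adjusted p = 0.374 without the block and 0.0127 with it). At 0 h, Npm1 had 27.9 and 35.4 FPKM in 4sU RNA and 188 and 276 FPKM in total RNA, the highest total RNA level of the 60 genes. Fbl followed with a difference of 1.61 ± 0.41, rank 38 (limma adjusted p = 0.465 without the block and 0.0165 with it), from 68.5 and 41.5 FPKM at 4 h against 8.58 and 9.57 at 0 h in 4sU RNA and 67.2 and 47.0 at 4 h against 35.2 and 27.8 at 0 h in total RNA. The opposite end was held by Wdr12, with a difference of -0.40 ± 0.25 (limma adjusted p = 0.937).

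**Figure D5:**
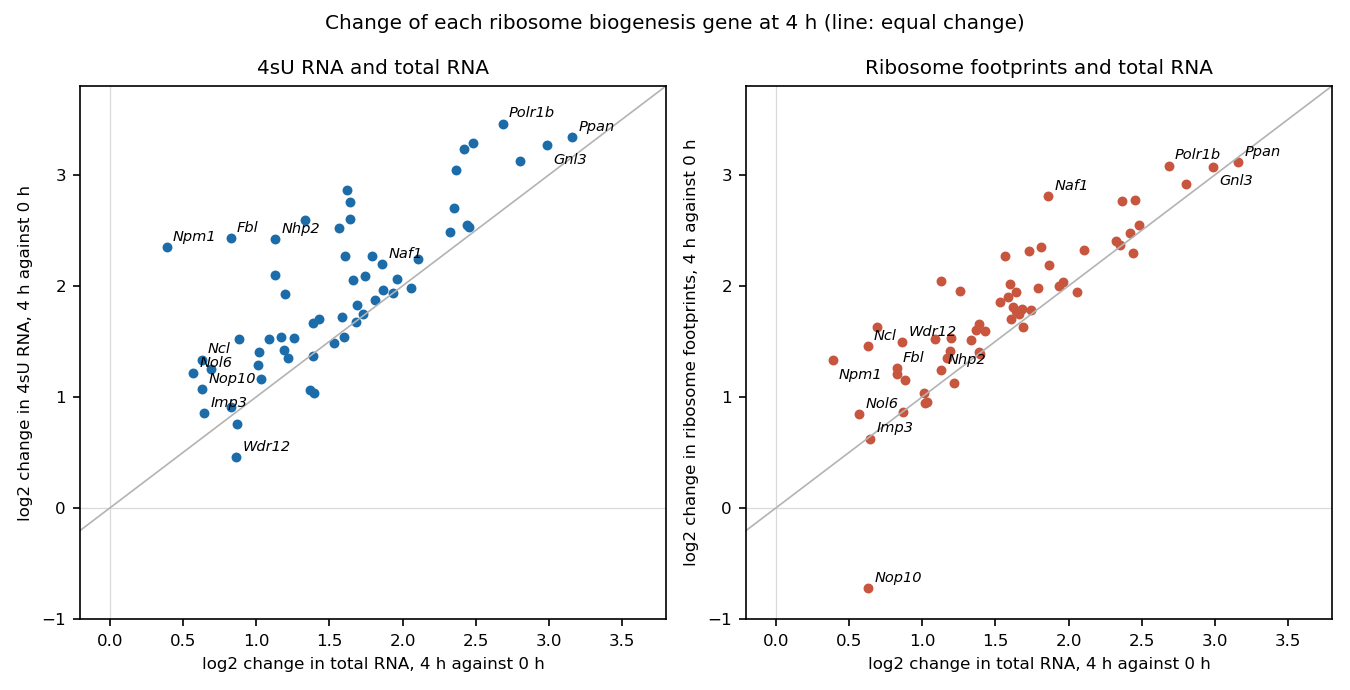
Each point is 1 of the 60 genes. The log2 change at 4 h against 0 h in 4sU RNA (left) and in footprints (right) is plotted against that in total RNA, and the line marks equal change. Npm1, Fbl and Nhp2 stand above the line on the left, and Nop10 is the only point below 0 on the right.

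A further 101 genes of ribosome biogenesis in 4 lists (other parts of the polymerase I machinery, other small-subunit factors, other large-subunit factors and the RNA exosome) moved mostly in the same direction. In 4sU RNA at 4 h, 66 of the 101 rose and 2 fell, against 14.4% and 18.9% of all genes tested, with a median log2 change of 0.99. In total RNA 44 rose and 0 fell, against 6.47% and 7.02% of all genes. In footprints 61 rose and 1 fell, against 12.1% and 12.9%. The 2 that fell in 4sU RNA were Ttf1, a terminator of polymerase I transcription (-0.74, limma adjusted p = 0.0297), and the exosome subunit Exosc8 (-1.13, limma adjusted p = 0.00969), and the 1 in footprints was Exosc8 (-0.69, limma adjusted p = 0.0459). By list, 38 of 47 large-subunit factors, 17 of 30 small-subunit factors, 6 of 11 polymerase I genes and 5 of 13 exosome genes rose in 4sU RNA, against the same 14.4% of all genes. Nle1, which binds the large-subunit remodelling enzyme Mdn1, had 29.97 and 20.37 FPKM at 4 h, against 2.98 and 2.56 at 0 h (log2 change 2.77, limma adjusted p = 0.0027). Mdn1 itself had 28.0 and 30.5 FPKM at 4 h, against 4.74 and 4.06 at 0 h (2.49, limma adjusted p = 0.00186). Cd3eap, a polymerase I subunit encoded outside the list of 60, had 44.6 and 28.7 FPKM at 4 h, against 8.16 and 8.01 at 0 h (2.02, limma adjusted p = 0.0037). Polr1d, the next largest of its list, had 85.1 and 48.8 FPKM at 4 h, against 30.6 and 20.7 at 0 h, and was not called (1.32, limma adjusted p = 0.0511). Among small-subunit factors Aatf (1.98) and the processome protein Utp4 (1.83) changed most, and among exosome genes Exosc1 (1.55) and the nuclease Dis3, which had 28.0 and 29.4 FPKM at 4 h, against 9.38 and 9.65 at 0 h. Whether these lists differ from the 60 genes was not tested.

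For the genes with CACGTG in the promoter window the median log2 change in 4sU RNA at 4 h was 1.69 (10 genes, 1.16 to 3.13), and for those without it 1.93 (40 genes, 0.46 to 3.46). Of the 15 genes with the largest change that had a window, 2 held the motif, and of the 15 with the smallest change 2 did. Among the 7 genes whose E-box stretch is printed above, the changes ran from 2.76 for Mybbp1a and 2.24 for Wdr43 to 1.35 for Utp20.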

How the data were processed

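The deposited table holds FPKM per gene and library for 24 libraries in 16 groups. The submitters' processing notes name featureCounts (Subread 1.4.6-p3) and the GRCm38 build. The aligner, annotation, strand setting and gene lengths were not given in the sources used here. FPKM are relative within each library, and depth could be read from whole-read steps (within 0.1 read) in 11 of the 24 libraries, so no count test was run. The members and lists were chosen with earlier results of these data known.

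Each kind of library was fitted on its own with limma 3.58.1 (R 4.3.3) on log2(FPKM + 1), with a mean-variance trend and all time groups sharing 1 estimate of the spread, over genes with a mean of at least 1 FPKM (9278, 9078 and 9312 genes in 4sU RNA, total RNA and footprints). P-values were adjusted over all genes tested (Benjamini-Hochberg, threshold 0.05). Differences between kinds were interaction terms in a joint fit. The short-label pair has no replicate and was compared without a test, over genes with at least 5 FPKM. A run on simulated data drew independent noise for each library, without the shared deviation of replicates given next, and no result here rests on it. Same-numbered replicates of different groups deviated together in all 28 pairs of groups (r 0.307 to 0.79, median 0.599, each above 0.1). This pairing comes from the data and not from the labels. The fits without the block, the joint fits among them, did not use it and treat the libraries as independent. The fit with the replicate block is an alternative, as are another pseudocount (0.1), no filter, median-of-ratios scaling and leaving out each library.

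Named genes are, per role, the 2 with the largest 4sU change at 4 h and the 1 with the smallest, the 3 at each end in total RNA and footprints, those called lower or not called in 4sU RNA, those that differ between kinds, and the 2 leading genes of each further list, of which 1 is not reported here. Other genes given with values were chosen after their values were seen, as were the division of the promoter window at the start and the values within each replicate. Positions and shared exon bases are from GENCODE M21, promoter sequences from RefSeq.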

Additional observations from a re-analysis of the deposited data

How the results depend on the processing

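Counts of called genes depended most on the replicate block and on single libraries. With the replicate block, the 4sU counts were 21 at 1 h (19 higher, 2 lower) and 54 at 2 h, those of total RNA 4 at 1 h and 28 at 2 h, that of footprints 38 at 2 h, and that of the 4sU against total RNA difference 7; it ended no call. Median-of-ratios scaling added Rcl1 and Polr1b to the calls in total RNA at 2 h, where the share of all genes was not compared. This scaling moved the median of all genes by up to 0.16. Leaving out 1 library gave 0 to 31 calls in 4sU RNA at 2 h, 1 to 55 at 3 h and 24 to 52 for 4 h against 1 h, 0 to 2 in total RNA at 2 h and 7 to 37 at 4 h, and 0 to 10 in footprints at 2 h and 0 to 40 for 4 h against 1 h. Ncl in total RNA reversed to -0.15 without the 0 h library of replicate 1 (limma adjusted p = 0.831) and was 1.41 without that of replicate 2. Of the 4 h against 0 h changes of named genes, 21 lost their call without at least 1 library, 8 of them in total RNA. Other settings ended 5 calls at other times: Bop1 in 4sU RNA at 2 h with a pseudocount of 0.1, and with median-of-ratios scaling Tsr1 and Polr1c in footprints at 2 h and Pno1 and Rrp12 in footprints at 4 h against 1 h. Motif shares before the start were 5.56% for CACGTG and 25.9% for CCGGAAG, against 8.66% and 15.7% of the windows of the table's genes. After the start they were 16.7% (9 of 54 windows) for CCGGAAG and 1.85% (1 of 54) for CGCATGC, against 5.26% and 1.0%. The cause of these shifts was not tested, beyond the fewer libraries that each left-out fit holds. Depth limits genes of low FPKM, and 13 of 24 libraries gave no depth.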

Other observations

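Values for the 51 cytosolic ribosomal protein genes are given by kind of library. In 4sU RNA at 4 h, 49 of 51 rose, against 14.4% of all genes tested, with a median log2 change of 1.52. In total RNA 3 of 51 rose, against 6.47% of all genes, with a median of 0.07. In footprints 25 of 50 rose, against 12.1% of all genes, with a median of 1.48. The difference between 4sU and total RNA had a median of 1.44. For it limma called 0 genes without the replicate block and 38 with it. Of all genes, 0% were called without the block and 1.69% were called higher with it. Many of these genes have pseudogenes and near-identical copies, so their values are uncertain.

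Subunits of the other nuclear RNA polymerases were also followed. In 4sU RNA at 4 h, 4 of 11 polymerase III subunits rose and 1 fell, led by Polr3d with 59.1 and 41.0 FPKM at 4 h against 7.15 and 7.12 at 0 h (2.63, limma adjusted p = 0.00296); Polr3gl was the 1 that fell (-1.19, limma adjusted p = 0.0137). Of 11 polymerase II subunits, 4 rose, led by Polr2h (1.54) and Polr2f (1.38). Of all genes tested in 4sU RNA, 14.4% were called higher and 18.9% lower. In total RNA 3 of 11 and 0 of 11 rose, against 6.47% of all genes, and none was called lower, against 7.02%. In footprints 3 of 11 and 0 of 11 rose, against 12.1% of all genes. Polr3gl (-1.49, limma adjusted p = 0.0192) and Polr2a (-0.84, limma adjusted p = 0.0315) fell, against 12.9% of all genes. With the replicate block more genes of each list were called lower, but their number was not compared with the share of all genes at that setting. Whether the polymerases differ from each other was not tested.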
